A study of Mus musculus with 6 samples.

Results

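Glutathione is a small thiol that cells use against peroxides and reactive chemicals. The glutamate-cysteine ligase, a catalytic subunit (Gclc) with a modifier subunit (Gclm), carries out the first and limiting step of its synthesis. Glutathione peroxidases (Gpx) oxidise it while they reduce peroxides, glutathione reductase (Gsr) returns it to the reduced form with NADPH, and glutathione S-transferases (Gst) couple it to other molecules. Preimplantation embryos start with a glutathione store made by the oocyte and are known to be sensitive to oxidative conditions in culture. The 8 genes Gclc, Gclm, Gsr, Gpx1, Gpx3, Gpx4, Gsto1 and Gstm1 were taken by name, and all 8 were present among the 12149 genes of the table.

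Dep embryos came from zygotes injected with sperm small RNAs of males in which stress had induced a depressive state, and Ctl embryos from zygotes injected with sperm small RNAs of normal males. Both groups were C57BL/6 blastocysts of embryonic day 3.5, both received small RNA at 2 ng/µl, and both were collected about 96 h after injection following culture in medium, with 3 single embryos per group. No uninjected embryo was analysed here, so effects that injection and culture have in both groups are not measured. Each library is 1 whole embryo made up of trophectoderm, epiblast and primitive endoderm. Shared parents and days of injection are not labelled, so p-values measure only the spread between these embryos, part of which may be technical. The design asks what the RNA cargo of sperm from stressed males does to transcript levels at the blastocyst stage.

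The libraries held 16543356 to 21548220 reads in listed genes. In Dep 1, 691 genes of the table had no read, a number that was 5 and 23 in Dep 2 and Dep 3 and 10 to 106 in the Ctl embryos. Markers of all 3 blastocyst lineages were present, although Fgf4, Sox17, Gata4 and Sox7 were at 0 in Dep 1 and Gata4 also in Ctl 3. None of the 8 listed cumulus and granulosa cell markers or of the 5 blood markers was in the table. Of 6 oocyte markers 2 were, Ooep with 687 to 3770 normalized counts in Dep and 1146 to 2446 in Ctl, and Zp3 with 0 to 112 and 11.5 to 125.

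The active-site codons of the most abundant members are shown because they set the chemistry that the family names describe. Gpx1, Gpx4 and Gpx3 carry an in-frame TGA, which the ribosome reads as selenocysteine with the help of a dedicated machinery, and Gpx2 shares it. Gpx5 and Gpx7, relatives outside the 8 genes, have a cysteine codon (TGC or TGT) at that place. Gsto1 belongs to the omega class of transferases, which act through a cysteine, here codon 32. Each line gives 33 bases of the coding strand from GENCODE M21 transcripts, 5′ to 3′, with the active-site codon in capitals.
Gsto1: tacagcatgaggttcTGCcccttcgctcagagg
Gpx1: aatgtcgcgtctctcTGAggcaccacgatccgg
Gpx4: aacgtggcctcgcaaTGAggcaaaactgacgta
Gpx3: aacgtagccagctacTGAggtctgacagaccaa
Gpx2: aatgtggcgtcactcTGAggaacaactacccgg
Gpx5: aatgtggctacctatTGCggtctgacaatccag
Gpx7: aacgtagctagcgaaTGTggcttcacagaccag
In GRCm38 the capital codons lie in coding exons at chr19:47855274-47855276 (Gsto1, exon 2, plus strand), chr9:108339451-108339453 (Gpx1, exon 1, plus strand), chr10:80054737-80054739 (Gpx4, exon 3, plus strand) and chr11:54907256-54907258 (Gpx3, exon 2, plus strand). Those of the relatives lie at chr12:76795256-76795258 (Gpx2, exon 1, minus strand), chr13:21291336-21291338 (Gpx5, exon 2, minus strand) and chr4:108403430-108403432 (Gpx7, exon 2, minus strand).

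The 8 genes are protein-coding and lie on 6 chromosomes of GRCm38. Gclc (ENSMUSG00000032350) spans chr9:77754535-77794485, Gclm (ENSMUSG00000028124) chr3:122245557-122270732, Gsr (ENSMUSG00000031584) chr8:33652523-33698163, Gpx1 (ENSMUSG00000063856) chr9:108338903-108340343 and Gpx4 (ENSMUSG00000075706) chr10:80047166-80056439, all on the plus strand. Gpx3 (ENSMUSG00000018339) spans chr11:54902453-54910377 and Gsto1 (ENSMUSG00000025068) chr19:47854970-47864790 on the plus strand, and Gstm1 (ENSMUSG00000058135) chr3:108012255-108017973 on the minus strand. Gclm overlaps the pseudogene Gm6061 on its own strand, which is listed at 21.9 to 60.6 normalized counts in Dep and 25.9 to 52.1 in Ctl.

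Levels of different genes were compared per length, as FPKM (reads scaled by exon length and by the library's reads in the table's genes). Gsto1 had the highest level of the 8 genes, with 1168 ± 177 FPKM in Dep and 1894 ± 96.3 FPKM in Ctl (SD, n = 3 each), and ranked 22 among all genes by its mean over the 6 embryos. Gpx1 ranked 49 and Gpx4 ranked 72. Gpx1 had 731 ± 239 FPKM in Dep and 760.4 ± 78.5 FPKM in Ctl, and Gpx4 had 529.6 ± 125 FPKM in Dep and 585 ± 57.7 FPKM in Ctl. These 3 genes made up 94.1% to 98.3% of the summed FPKM of the 8 in Dep and 93.5% to 96.3% in Ctl. Gpx3 followed with 37.1 ± 23.2 FPKM in Dep and 79.6 ± 47.8 FPKM in Ctl, and Gsr with 40.9 ± 18.4 FPKM in Dep and 52.5 ± 5.60 FPKM in Ctl. Gclm (10.05 ± 5.84 FPKM in Dep and 14.4 ± 1.37 FPKM in Ctl), Gstm1 (6.28 ± 4.30 in Dep and 8.94 ± 5.02 in Ctl) and Gclc (4.26 ± 1.69 in Dep and 5.50 ± 2.49 in Ctl) were the lowest. The ranges of mean ± SD of neighbours in this order overlapped for Gpx1 and Gpx4 in Dep, and in both groups for Gpx3 and Gsr, Gclm and Gstm1, and Gstm1 and Gclc.

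**Figure D1:**
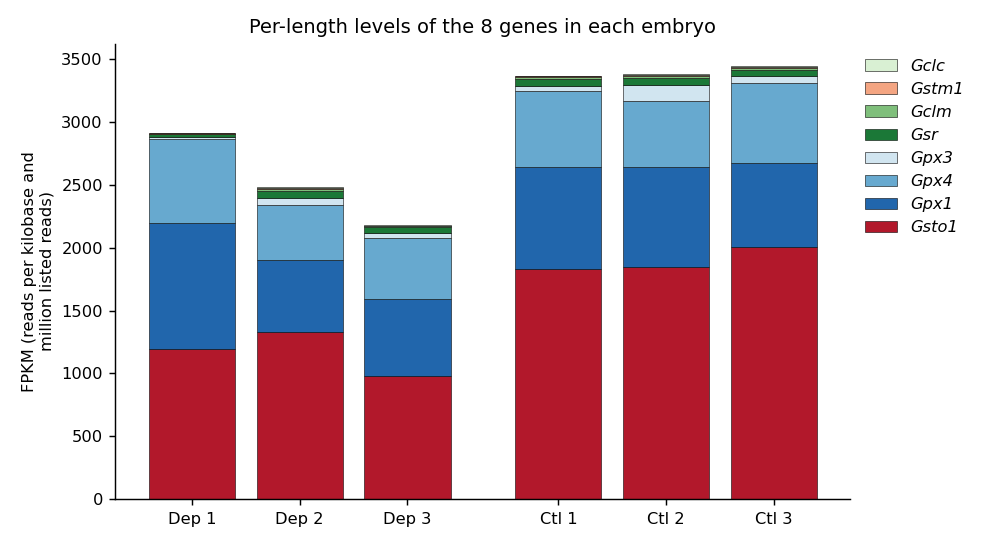
FPKM of the 8 genes stacked for each of the 6 embryos, with the 3 Dep embryos on the left and the 3 Ctl embryos on the right. The stacks reach 2917, 2484 and 2181 FPKM in Dep 1, 2 and 3, and 3369, 3384 and 3450 FPKM in Ctl 1, 2 and 3, with Gsto1 the lowest and tallest segment.

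The summed level was lower in each Dep embryo than in each Ctl embryo, and Gsto1 made most of that difference. Without Gsto1 the sum was 1727, 1151 and 1200 FPKM in Dep 1, 2 and 3 and 1537, 1538 and 1445 FPKM in Ctl 1, 2 and 3, so that the groups overlapped. Gsto1 held 40.8% to 53.7% of the summed level in Dep and 54.4% to 58.1% in Ctl.

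Gsto1, the omega-class transferase that also reduces dehydroascorbate, had 50321, 48906 and 32485 normalized counts in Dep 1, 2 and 3, against 72538, 67204 and 71116 in Ctl 1, 2 and 3. Every Dep embryo lay below every Ctl embryo, and the Ctl embryos lay close together, with a coefficient of variation of 3.93%, against 22.6% in Dep. The mean was 43904 ± 9914 normalized counts in Dep and 70286 ± 2762 in Ctl (SD, n = 3 each). On the log2(normalized count + 1) scale the fold was -0.71 ± 0.33 (SE), a ratio of 0.613, with a 95% confidence interval of -1.43 to 0.02. The adjusted p from limma was 0.9997 and the unadjusted p 0.0562, so Gsto1 was not called. That separation also puts Dep below Ctl in 3 of 3 same-numbered pairs, so the pairs add nothing to it. A replicate block gave an unadjusted p of 0.0147 by limma and an adjusted p of 0.941. The fold ranged from -0.82 without Dep 1 to -0.50 without Dep 3. In a whole embryo, fewer cells that express a gene and less of its RNA per cell cannot be told apart. Of the 8 genes only Gsto1 (12.5%) had all Dep embryos below all Ctl embryos, as did 3.80% of all genes, and the groups of 6.90% of all genes did not overlap in either direction. The authors' deposited table gives Gsto1 a log2 fold of -0.68 with an unadjusted p of 0.0123 and an adjusted p of 0.9999. Gsto1 overlaps Cfap43 on the opposite strand, whose reads cannot be told apart without strand. Cfap43 itself is listed at 131 to 444 normalized counts in Dep and 126 to 341 in Ctl, far below Gsto1.

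**Figure D2:**
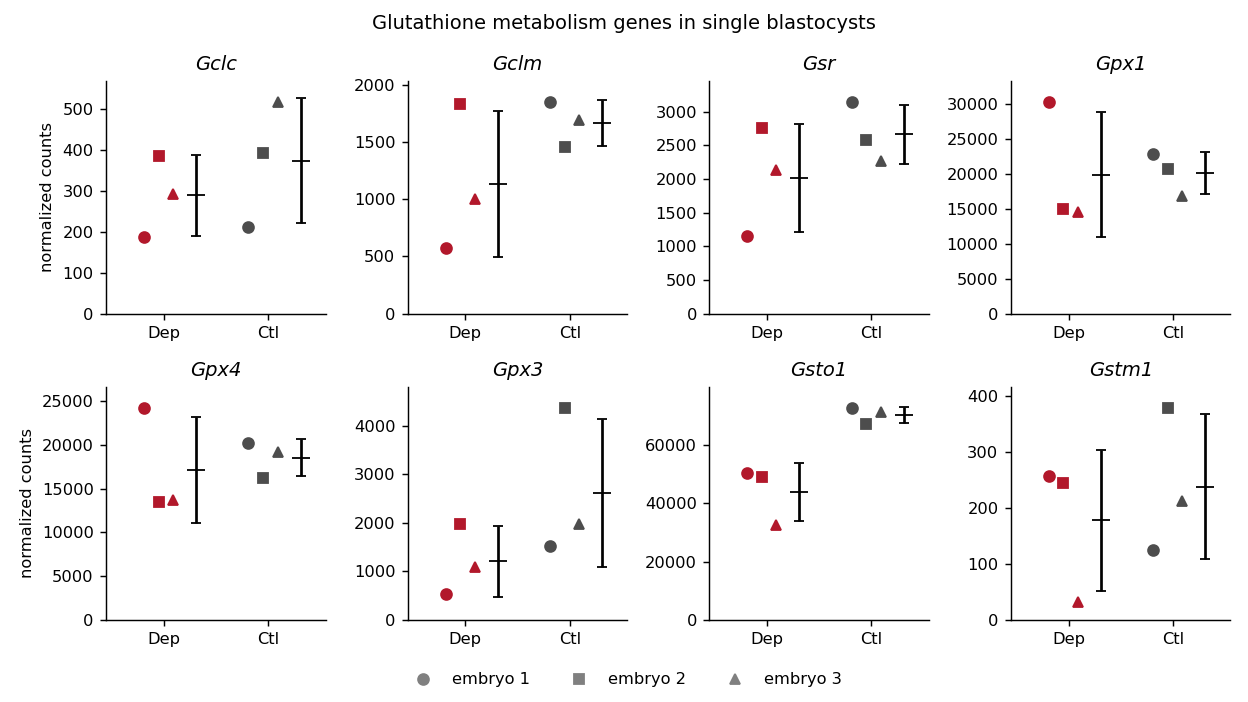
Normalized counts (linear axes from 0) of each of the 8 genes in the 3 Dep embryos (red) and the 3 Ctl embryos (grey); marker shapes give the embryo number, and bars beside them the mean ± SD. Gsto1 is the panel without overlap, with Dep at 32485 to 50321 and Ctl at 67204 to 72538, and Dep 1 is the highest of all embryos for Gpx1 and Gpx4 and the lowest for Gclc, Gclm, Gsr and Gpx3.

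Over the whole table limma called 0 of 12149 genes at an adjusted p of 0.05 (0.00%), and 225 genes (1.85%) had an unadjusted p under 0.05, of which 101 were higher in Dep (0.831%) and 124 lower (1.02%). edgeR called 0 genes with 211 at the unadjusted threshold, and DESeq2 called 1 gene, none of the 8, with 279. With the replicate number as a block, limma called 0 and had 420 at the unadjusted threshold. That count was 474, 349 and 576 when Dep 1, 2 or 3 was left out, and 122, 228 and 137 when Ctl 1, 2 or 3 was. Of the 8 genes, 0 passed the adjusted threshold and 1, Gpx3, was under the unadjusted one. This count depended on the fit: under 17 alternatives it was 0 in 5, 1 in 7 and 2 in 5, with Gpx3 under the threshold in 9 and Gsto1 in 7. Both were under it with the replicate block, DESeq2, quantile normalization and a pseudocount of 0.5, and neither with edgeR. All 8 had a negative log2 fold, with a median of -0.59, beside -0.02 over all genes, of which 6288 were negative and 5861 positive. The 8 were chosen with earlier results of these data known, so this is a description only. The median fold was -0.32 with library weights and stayed between -0.77 and -0.43 when 1 embryo was left out. By embryo, relative to the Ctl mean on the log2 scale, the median of the 8 was -0.69, -0.09 and -0.59 in Dep 1, 2 and 3. Dep 2 lay above that mean for Gclc, Gclm, Gsr and Gstm1 and below it for the others.

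**Figure D3:**
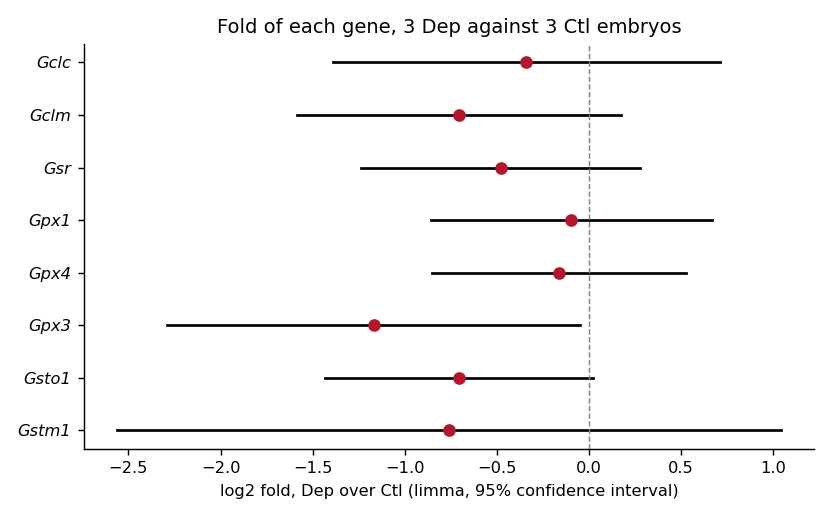
Log2 fold of each gene, Dep over Ctl, on the log2(normalized count + 1) scale, as points with 95% confidence intervals from limma. All 8 points lie left of 0, from -1.17 for Gpx3 to -0.10 for Gpx1, and only the interval of Gpx3 (-2.29 to -0.05, not adjusted for the number of genes) ends short of 0.

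The synthesis genes did not separate the groups. Gclm, the modifier subunit that raises the affinity of the ligase for glutamate, had 574, 1830 and 1004 normalized counts in Dep 1, 2 and 3, against 1849, 1454 and 1696 in Ctl 1, 2 and 3. Dep 1 and Dep 3 lay below all Ctl embryos and Dep 2 lay near the highest of them. The fold was -0.70 ± 0.40 (SE; limma, adjusted p = 0.9997). It was -0.29 without Dep 1 and -1.13 without Dep 2, with unadjusted p = 0.387 and 0.00959 by limma. Gclc, the catalytic subunit, had 187, 385 and 293 normalized counts in Dep 1, 2 and 3, against 212, 393 and 516 in Ctl 1, 2 and 3, and the groups overlapped. Its fold was -0.34 ± 0.47 (SE), -0.06 without Dep 1 as without Ctl 3, -0.58 without Dep 2 and -0.70 without Ctl 1. Per length the Gclm transcript exceeded that of Gclc in all 6 embryos, by 1.84, 2.84 and 2.05 times in Dep 1, 2 and 3, and by 5.22, 2.21 and 1.97 times in Ctl 1, 2 and 3. The interval of the fold reached from -1.39 to 0.71 for Gclc and from -1.58 to 0.18 for Gclm.

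Gclm is known in mouse and human as a target of NRF2 (gene Nfe2l2), a transcription factor that binds antioxidant response elements. The core of that element, searched as TGACNNNGC on both strands in windows of 250 bases before to 50 after annotated start sites (RefSeq, GRCm38.p6), occurred in 1 of the 6 members with a window in the table, Gclm, and in 14% of the 27025 genes with one. It lies 134 bases before the start site in the opposite orientation, and is shown in capitals in 69 bases of the plus strand at chr3:122245393-122245461.
Gclm: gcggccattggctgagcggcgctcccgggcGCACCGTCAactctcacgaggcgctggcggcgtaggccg
The windows of Gpx1, Gpx3, Gpx4, Gsto1 and Gstm1 did not hold these letters, and Gclc and Gsr were not searched.

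Gsr, which regenerates reduced glutathione, had 1158, 2762 and 2130 normalized counts in Dep 1, 2 and 3, against 3142, 2581 and 2274 in Ctl 1, 2 and 3. Dep 1 was the lowest and Dep 2 lay among the Ctl embryos. The fold was -0.48 ± 0.34 (SE; limma, adjusted p = 0.9997), -0.12 without Dep 1 and -0.75 without Dep 2.

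Of the peroxidases, Gpx1 and Gpx4 had similar means in both groups and Gpx3 a lower mean in Dep. Gpx1, the cytosolic peroxidase that reduces hydrogen peroxide, had 30315, 14979 and 14502 normalized counts in Dep 1, 2 and 3, against 22955, 20671 and 16930 in Ctl 1, 2 and 3. Gpx4, which reduces lipid hydroperoxides within membranes and is needed for mouse development, had 24168, 13501 and 13726 in Dep 1, 2 and 3, against 20260, 16182 and 19170 in Ctl 1, 2 and 3. For both genes Dep 1 was the highest of the 6 embryos, and Dep 2 and Dep 3 were the lowest. The folds were -0.10 ± 0.34 for Gpx1 and -0.16 ± 0.31 for Gpx4 (SE), with intervals of -0.86 to 0.67 and -0.85 to 0.53. Without Dep 1 they were both -0.44. For Gpx1 the sign turned without Dep 2 (0.07), Dep 3 (0.09) or Ctl 1 (0.003), and for Gpx4 the fold was -0.02 without Dep 2 and -0.03 without Dep 3. The ratio of Gpx1 to Gpx4 per length stayed between 1.26 and 1.501 in Dep and between 1.06 and 1.53 in Ctl.

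Gpx3, the peroxidase that cells secrete, had 533, 1985 and 1090 normalized counts in Dep 1, 2 and 3, against 1527, 4361 and 1971 in Ctl 1, 2 and 3. Dep 2 exceeded Ctl 1 and Ctl 3, so the groups overlapped. Within same-numbered pairs Dep was lower than Ctl in 3 of 3, as for Gclc and Gsto1. The other genes of the 8 had 2 of 3. The mean was 1203 ± 733 in Dep and 2619 ± 1524 in Ctl (SD, n = 3 each), and the log2 fold of -1.17 ± 0.51 (SE) was the most negative of the 8. It missed the adjusted threshold (limma, adjusted p = 0.9997; unadjusted p = 0.0426). A replicate block gave an unadjusted p of 0.00121 by limma and an adjusted p of 0.941. The fold was -0.68 without Dep 1 and -0.73 without Ctl 2, with unadjusted p = 0.131 and 0.193 by limma, and -1.63 without Dep 2 and -1.48 without Ctl 1, with unadjusted p = 0.00787 and 0.0276. The authors' deposited table gives Gpx3 a log2 fold of -1.12 with an unadjusted p of 0.0207 and an adjusted p of 0.9999.

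Gstm1, a cytosolic transferase of the mu class, had 257, 244 and 32.0 normalized counts in Dep 1, 2 and 3, against 124, 378 and 213 in Ctl 1, 2 and 3. The groups overlapped, and the value of Dep 3 rests on 38 reads. The fold was -0.76 ± 0.81 (SE; limma, adjusted p = 0.9997) with an interval of -2.56 to 1.04, and without Dep 3 it turned to 0.22. It was -0.42 by edgeR, -0.36 without Ctl 2, and -1.15 to -1.27 without Dep 1, Dep 2 or Ctl 1. Gstm1 shares over 90% identity across at least 200 bases with transcripts of Gstm2, Gstm6 and the pseudogene Gstm2-ps1, and Gpx4 shares it with the copies Gpx4-ps2 and AC122253.3, so the division of their reads is uncertain. No such relative was found for the other 6 genes.

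Dep 1 combined the highest Gpx1 and Gpx4 values with the lowest Gclc, Gclm, Gsr and Gpx3 values of the 6 embryos. The ratio of Gpx1 to Gsr per length was 50.02 in Dep 1, against 10.4 and 13.0 in Dep 2 and Dep 3 and 13.96, 15.3 and 14.23 in Ctl 1, 2 and 3. In the list of 12 NRF2 regulators and targets, all measured, 8 genes had their lowest value in Dep 1, where 29.7% of all genes had theirs. The remaining genes of the list, Keap1, Cul3, Bach1 and Rbx1, were not lowest there. Rbx1 was highest in Dep 1, with 8445 normalized counts against 3361 to 6187 in the other embryos. A part of NRF2 in these values was not tested. The antioxidant gene Srxn1, which encodes sulfiredoxin, had 94.7 normalized counts in Dep 1, 2629 and 1241 in Dep 2 and Dep 3 and 932 to 1050 in Ctl. Hmox1 (heme oxygenase) had 126, 625 and 158 normalized counts in Dep 1, 2 and 3 and 292, 498 and 396 in Ctl 1, 2 and 3. Mafg, a small Maf partner of NRF2, had 178 normalized counts in Dep 1, 1692 and 1392 in Dep 2 and Dep 3, and 460 to 1274 in Ctl, while Nfe2l2 itself had 829 in Dep 1, 1726 and 1020 in Dep 2 and Dep 3 and 910 to 1236 in Ctl. Srxn1, Hmox1, Mafg and Nfe2l2 were named here after their values were seen. These are the values of 1 embryo, with no test. Low values were common in Dep 1. There 20.0% of all genes lay more than 1 log2 unit below the Ctl mean, against 6.04% and 5.10% in Dep 2 and Dep 3.

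**Figure D4:**
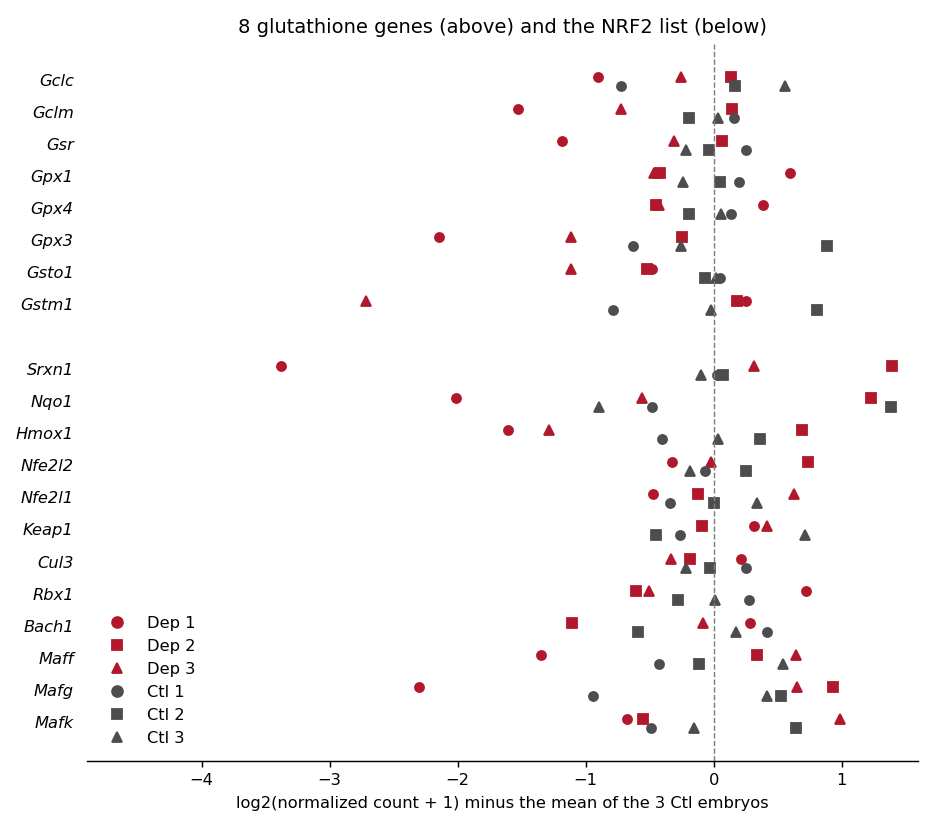
Log2(normalized count + 1) of each embryo minus the mean of the 3 Ctl embryos, for the 8 glutathione genes (upper rows) and the 12 genes of the NRF2 list (lower rows), with Dep embryos in red and Ctl embryos in grey and marker shapes for the embryo number. Dep 1 (red circle) lies at -2.14 for Gpx3, -1.53 for Gclm and -1.19 for Gsr, and at 0.60 for Gpx1 and 0.39 for Gpx4. On this scale 20.0% of all genes lie below -1 in Dep 1, against 6.04% and 5.10% in Dep 2 and Dep 3.

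Lineage markers also varied between the embryos, and their part in these values was not tested. The summed level of the 9 trophectoderm markers was 2712, 1168 and 1306 FPKM in Dep 1, 2 and 3, and 1944, 1854 and 1288 FPKM in Ctl 1, 2 and 3. The keratin genes Krt8 and Krt18 made most of this sum, with 832 and 1589 FPKM in Dep 1. Dep 1 had the highest sum, as it had the highest Gpx1 and Gpx4. It was the lowest embryo for Tfap2c, however, and Krt7 and Elf5 were highest in Ctl 2. The 7 measured primitive endoderm markers summed to 26.0, 66.6 and 103 FPKM in Dep 1, 2 and 3, and 54.9, 72.8 and 64.3 FPKM in Ctl 1, 2 and 3, and the 8 epiblast markers to 269, 420 and 375 FPKM in Dep and 284, 361 and 319 FPKM in Ctl. Sox17, Sox7 and Gata4 were at 0 in Dep 1, and at 0.88, 9.71 and 0 normalized counts in Ctl 3. The primitive endoderm sum of Ctl 3 came mostly from Gata6, with 56.1 FPKM. On the log2 scale, relative to the Ctl mean, the median of the 7 primitive endoderm markers was -2.19 in Dep 1 and -2.37 in Ctl 3. It was 0.68 to 1.95 in the other embryos, so low values of these markers were not confined to Dep 1. For the 8 epiblast markers the median was -0.99 in Dep 1 and -0.11 to 0.27 in the other embryos. Dep 1 was the lowest embryo for 6 of these 8, as for 29.7% of all genes. For the 9 trophectoderm markers the median was 0.62 in Dep 1 and -0.37 to 0.25 in the other embryos. Mitochondrially encoded transcripts took 3.59% ± 0.486 of reads in Dep and 5.97% ± 1.83 in Ctl (SD, n = 3 each), with p = 0.2 in an exact permutation test, two-sided, that cannot give less than 0.1.

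The rest of the pathway was described with 7 further lists of 114 genes, of which 94 were in the table. Of these 94, 0 passed the adjusted threshold and 2 were under the unadjusted one, beside 1.85% of all genes. A positive fold was found in 39 and a negative one in 55, and the median was -0.06. In 4 genes (4.26%) all Dep embryos lay below all Ctl embryos, near the 3.80% of all genes, and in 0 genes all lay above (3.09% of all genes). They were the transferase genes Mgst2 and Gstm3, the transferase-domain gene Gstcd and Selenoi, a selenoprotein of phospholipid synthesis. Gstcd had 231, 283 and 196 normalized counts in Dep 1, 2 and 3, against 375, 362 and 355 in Ctl 1, 2 and 3, with a fold of -0.63 ± 0.39 (SE). Selenoi had 1371 to 1630 in Dep and 1641 to 2163 in Ctl, Mgst2 67.4 to 117 in Dep and 124 to 211 in Ctl, and Gstm3 0 to 22.8 in Dep and 40.1 to 68.6 in Ctl. For Selenoi and Mgst2 the highest Dep embryo thus lay close to the lowest Ctl embryo. Gstm3 lay near 0 in Dep, and its fold was -3.17 with a pseudocount of 0.5 and -1.62 with 10.

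Among the other transferases, 7 of 18 measured genes had a positive and 11 a negative fold, with a median of -0.30. Gsta4, which conjugates the lipid peroxidation product hydroxynonenal, and Gstp1, of the pi class, were the most abundant per length. Gsta4 had 10542, 3305 and 2493 normalized counts in Dep 1, 2 and 3, against 5660, 4444 and 2227 in Ctl 1, 2 and 3. Gstp1 had 7999, 7769 and 2672 in Dep 1, 2 and 3, against 5250, 5814 and 4493 in Ctl 1, 2 and 3. For both genes the groups overlapped.

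Of the 7 measured other peroxidases and glutaredoxins, 2 had a positive and 5 a negative fold (median -0.15). The peroxidase genes Gpx2 and Gpx5 were under the unadjusted threshold as lower in Dep, where 1.02% of all genes were. They were the only 2 of the 94 genes of the 7 lists under it in either direction, beside 1.85% of all genes. Gpx2 had 304, 1245 and 263 normalized counts in Dep 1, 2 and 3, against 1953, 1104 and 1064 in Ctl 1, 2 and 3 (limma, unadjusted p = 0.0206). Gpx5 had 0, 20.9 and 5.90 in Dep 1, 2 and 3, against 20.1, 95.2 and 147 in Ctl 1, 2 and 3 (limma, unadjusted p = 0.0386). In both, Dep 2 lay within the Ctl range, and both were named after their values were seen. Gpx5 lay near 0 in Dep, where the fold depends on the pseudocount. The glutaredoxin genes Glrx and Glrx3 were the most abundant of the list, with 3232 to 8624 and 4500 to 8796 normalized counts in Dep and 4754 to 7935 and 5173 to 7867 in Ctl.

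Genes of glutathione synthesis beyond the ligase, turnover and precursor transport had a median fold of -0.03, with 6 of 14 positive. The most abundant were the dipeptidase gene Cndp2, with 10446 to 16877 normalized counts in Dep and 12215 to 15646 in Ctl, and Slc3a2, the heavy chain of amino acid exchangers, with 2008 to 3884 in Dep and 1728 to 3048 in Ctl. Genes of NADPH supply had a median of 0.07 with 10 of 17 positive. Taldo1, of the pentose phosphate pathway, had 2818 to 7050 normalized counts in Dep and 3986 to 6357 in Ctl, and the isocitrate dehydrogenase gene Idh1 3959 to 6362 in Dep and 3339 to 5732 in Ctl. Detoxification and export genes had a median of 0.09 with 3 of 6 positive, led by the esterase gene Esd (1094 to 3436 in Dep and 1147 to 1891 in Ctl) and the alcohol dehydrogenase gene Adh5, which acts on glutathione adducts of formaldehyde (1330 to 3435 in Dep and 1492 to 2122 in Ctl).

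The NRF2 list had a median fold of -0.13 with 3 of 12 positive, and 0.23 without Dep 1. Its most abundant members per length, Rbx1 and Cul3, parts of the ubiquitin ligase that degrades NRF2, had 3361 to 8445 and 2763 to 4027 normalized counts in Dep and 4211 to 6187 and 2983 to 4135 in Ctl. Selenocysteine incorporation and other selenoprotein genes, on which Gpx1, Gpx3 and Gpx4 depend or with which they share their codon, had a median of -0.08 with 8 of 20 positive. Selenow and Selenoh were the most abundant, with 4289 to 8996 and 2306 to 5926 normalized counts in Dep and 6259 to 8135 and 2277 to 4329 in Ctl. In all 7 lists the groups overlapped for the abundant genes named.

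The genes whose pattern over the 6 embryos was most like that of Gsto1 were Carhsp1, Pik3c3 and Cdc73. Their centred log2 levels lay within a root mean square distance of 0.13, 0.13 and 0.15 of it, the smallest among 5912 other named genes with a mean of at least 500 normalized counts. Carhsp1, an RNA-binding protein gene, had 1328, 1404 and 1095 normalized counts in Dep 1, 2 and 3, against 1917, 1785 and 1853 in Ctl 1, 2 and 3. Pik3c3, a lipid kinase gene, had 618, 644 and 407 in Dep 1, 2 and 3, against 763, 689 and 821 in Ctl 1, 2 and 3. Cdc73, a subunit gene of the PAF1 transcription complex, had 1504, 1355 and 1082 in Dep 1, 2 and 3, against 2345, 1665 and 1968 in Ctl 1, 2 and 3. As in Gsto1, all Dep embryos lay below all Ctl embryos and Dep 3 was the lowest. This follows from choosing the 3 genes by their nearness to Gsto1 in these same 6 libraries, and is a description only.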

How the data were processed

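RNA of 6 single blastocysts was measured after cDNA synthesis with an ultra-low-input SMART-Seq v4 kit, per the labels' protocols, which does not mark strand. HISAT2, Cufflinks 2.2.1 and mm10 appear in the submitters' processing notes with no role attached, and the program that counted reads is not given in the sources used here. Values in the deposited table are of the unit signal, that is read counts divided by 1 size factor per library: with that step fitted, 100% of the values came out as whole reads (tolerance 0.01). For Dep 2 that step, 0.993, is so near 1 that it was found by fitting over all values. The authors' own comparison stands beside them, per the file headers, as a log2 fold change, its error, a statistic (score) and raw and adjusted p-values. No gene in it has a mean under 14.2, so lower genes are not covered.

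Of 12149 Ensembl identifiers, 11829 matched GENCODE M21 (GRCm38, the assembly mm10 names), which gave names, positions and exon lengths. FPKM was computed from recovered reads. limma 3.58.1 with a mean-variance trend was fitted on log2(normalized count + 1) over all genes, Dep against Ctl, with Benjamini-Hochberg adjustment and a threshold of 0.05. Folds on that scale depend on the pseudocount where a library is near 0, and can be smaller or larger than those of a count model. The recovered reads were also tested with edgeR 4.0.16 (quasi-likelihood) and with DESeq2 1.42.0, in R 4.3.3, and BLAST 2.17.0 compared transcripts. The fit was tested on simulated data. Reads carry no molecular identifiers here and are not independent molecules.

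The members and lists were chosen with earlier results of these data known. From each further list the text names the 2 most abundant genes per length and those whose groups do not overlap, and for Gsto1 the 3 genes of nearest pattern. The labels number the embryos of each group 1 to 3. Embryos sharing a number deviated together from their groups' means, with correlations of 0.133, 0.151 and 0.129. Each was over 0.1, the criterion for a pairing, but no label states one, so whether the embryos are paired is not known. The folds, intervals and p-values reported come from the fit without pairs unless a replicate block is named. That block was planned as an alternative and remained one.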

Additional observations from a re-analysis of the deposited data

How the results depend on the processing

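The median log2 fold of the 8 genes was negative under all 17 alternatives, from -0.77 to -0.32, and no gene of the 8 passed the adjusted threshold under any of them, the smallest adjusted p being 0.838. Of 136 values of single members under the alternatives, 132 kept their sign and 4 turned, each with 1 embryo left out: over such fits Gpx1 ranged from -0.442 to 0.0895 and Gstm1 from -1.27 to 0.22. The medians of the 7 further lists, between -0.30 and 0.09, each took both signs when 1 embryo was left out, for example -0.41 to 0.08 for the transferases. Gsto1 ranged from -0.82 to -0.50. Over all genes, DESeq2 called 1 gene where the other alternatives called 0. The number under an unadjusted p of 0.05, an alternative count added after the data were seen, was 399 with library weights and 122 to 576 with 1 embryo left out. With the replicate number as a block it was 420, and the block changed no call. The depth of 38 reads limits Gstm1 in Dep 3. Gstm3 is absent from the alternative with a minimum mean of 100.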
